A study of Mus musculus with 10 samples.

Results

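The genes described here are the 37 mouse Hox genes with a probe set annotated to that gene alone, taken by name and not by their signal, out of 19937 genes with such a probe set and 28192 probe sets tested. They are 10 Hoxa, 9 Hoxb, 9 Hoxc and 9 Hoxd genes with 1 probe set each. Hoxb8 is not among them, because its probe set is shared with Hoxb7. The Hox genes encode homeodomain transcription factors that lie in the clusters Hoxa, Hoxb, Hoxc and Hoxd, and those of low paralog number are known to act in the hindbrain and neck and those of high paralog number in the lower trunk, limb buds, hindgut and genitalia. The order of the genes along a cluster follows the order of their domains along the body, and genes of the same paralog number in different clusters descend from 1 ancestral gene. Neural crest cells carry a Hox code set by the level of the neural tube from which they leave, and the sacral crest, which forms much of the pelvic ganglia, leaves caudal to the trunk crest.

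Messenger RNA levels were read on Affymetrix mouse Gene 1.0 ST arrays in neural crest-derived progenitors (NCPs) at embryonic day 13 (E13) and in total embryo. The 3 NCP arrays carry RNA from cells sorted as positive for H2BVenus, a nuclear yellow fluorescent protein driven by Sox10 sequences in the transgene C3Fe.Tg(Sox10-HIST2H2BE/Venus)ASout. The 7 total embryo arrays carry 2 RNA isolates, for which the labels give neither stage nor genotype, so these arrays repeat few isolates and p-values measure the spread between arrays, part of which is technical. Each NCP sample was pooled from several fetuses according to the study's methods, and the gate follows transgene fluorescence, which can outlast Sox10 expression. In total embryo the Hox signal is an average over all axial levels and tissues, in which fewer cells expressing a gene and less RNA per cell cannot be told apart.

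All 3 NCP arrays share 1 day in the sample titles, whereas the 7 total embryo arrays span 7 such days, and only total embryo replicate 1 shares the NCP day. The arrays of the groups also differed in range. The log2 values had an SD over all probe sets of 0.97 to 1.13 on NCP arrays and 1.78 to 1.91 on total embryo arrays. Receptor genes of smell and pheromone sensing (Olfr and Vmn), rarely expressed outside the nose, had a median log2 signal of 5.39 to 5.62 on NCP arrays and 3.62 to 3.88 on total embryo arrays, and the distance between 9 housekeeping genes and these receptors was 3.07, 0.72 and 4.21 on NCP replicates 1, 2 and 3, against 6.84 to 7.46 on total embryo arrays. Dim probe sets read higher and bright ones lower in NCPs across the whole array. The main Hox counts are given beside the share of all probe sets called, the 500 genes nearest in total embryo level, a level adjustment that removes each array's trend of difference against level, and a floor set at the 95th percentile of the receptor genes on the same array. Sox10 itself, the factor that marks these progenitors, had log2 signals of 7.95, 7.14 and 7.60 on the NCP arrays and between 6.38 and 6.65, with a median of 6.59, on total embryo arrays, a log2 difference of 1.0 (adjusted p = 0.000278, limma with Benjamini-Hochberg) that read 1.22 after level adjustment and -0.69 when arrays were centred on receptor genes. Of 7 measured neural crest and glial markers, 2 were higher and 3 lower in NCPs by limma, beside 39.6% and 27.5% of all probe sets. After level adjustment 2 were higher and 2 lower, beside 10.3% and 8.29%. Fabp7 differed by -4.39 on the log2 scale and by -1.74 after level adjustment.

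The clusters also hold microRNA genes of the miR-10 and miR-196 families, whose mature forms are printed from RefSeq (GRCm38.p6) to show which of them share a seed, the bases 2 to 8 that pair with targets, in capitals. The miR-10 pair share ACCCUGU and the miR-196 pair share AGGUAGU.
miR-10a-5p, chr11:96317186-96317208, plus strand: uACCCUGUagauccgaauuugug
miR-10b-5p, chr2:74726074-74726096, plus strand: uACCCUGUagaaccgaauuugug
miR-196a-5p (from Mir196a-1), chr11:96265187-96265208, plus strand: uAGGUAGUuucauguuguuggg
miR-196b-5p, chr6:52230129-52230150, minus strand: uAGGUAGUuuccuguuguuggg

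RefSeq promoter windows of 300 bases, 250 before to 50 after a start site, were given for 21 of the 37 Hox genes, 23 windows in all. The composite motif TGATNNAT, the form in which Hox and Pbx proteins bind side by side, was searched on both strands and was in 3 of 23 Hox windows (13%), against 8.85% of all 32851 promoters. TATAAA, the TATA box, was in 3 of 23 Hox windows (13%) and in 13.6% of all promoters. Hox windows held a median of 15 CpG dinucleotides, from 4 to 45, and all promoters a median of 7. The window of Hoxb1 and 1 window of Hoxd11 are printed because both genes were called higher on the deposited scale without each NCP array in turn and both windows hold TGATNNAT, in capitals, on the printed strand in Hoxb1 and on the opposite strand in Hoxd11. A match is a description of the letters and not a site shown to be bound.
Hoxb1, chr11:96365508-96365807, plus strand: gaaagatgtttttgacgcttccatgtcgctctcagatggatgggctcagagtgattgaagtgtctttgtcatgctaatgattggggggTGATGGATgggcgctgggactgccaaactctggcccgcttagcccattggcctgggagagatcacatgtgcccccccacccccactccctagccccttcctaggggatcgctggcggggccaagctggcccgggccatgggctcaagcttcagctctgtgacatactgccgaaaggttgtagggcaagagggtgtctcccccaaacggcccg
Hoxd11, chr2:74682073-74682372, plus strand: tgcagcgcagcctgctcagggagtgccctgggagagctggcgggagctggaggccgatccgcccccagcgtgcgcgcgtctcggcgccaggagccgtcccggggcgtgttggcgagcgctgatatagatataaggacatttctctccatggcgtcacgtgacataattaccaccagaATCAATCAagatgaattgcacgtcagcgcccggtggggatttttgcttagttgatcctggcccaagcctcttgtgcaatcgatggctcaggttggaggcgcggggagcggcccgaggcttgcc

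On the deposited scale, 24 of 37 Hox genes were higher in NCPs than in total embryo, none was lower and 13 did not pass the test, while with the arrays centred on the receptor genes none was higher, beside 4.75% of all probe sets, and 32 were lower, beside 77.9% (limma with Benjamini-Hochberg over all probe sets). The share of Hox genes called higher was 64.9%, beside 39.6% of all probe sets called higher and 27.5% called lower. Among the genes nearest to each Hox gene in total embryo level, 41.6% were called higher on average and 12.5% lower. The median log2 difference was 0.75 over the Hox genes and 0.23 over all probe sets, and single genes ran between -0.28 for Hoxc13 and 2.02 for Hoxd12. Centring on the receptor genes takes a constant off each array, so it moved every log2 difference by the same -1.69. The Hox median therefore stayed 0.52 above that of all probe sets, which is no second measurement of that distance. In 15 of 37 Hox genes the lowest NCP array exceeded the highest total embryo array, beside 31.8% of all probe sets, and in none was the order the other way round, beside 21.5%. Cyclic loess gave 15 Hox genes higher, beside 16.9% of all probe sets, and 1 lower, beside 16.0%, and repeated quantile normalization gave 17, beside 22.6%, and 1, beside 20.0%. Level adjustment left 11 Hox genes higher, beside 10.3% of all probe sets, and 1 lower, beside 8.29%, with a Hox median of 0.36.

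**Figure D1:**
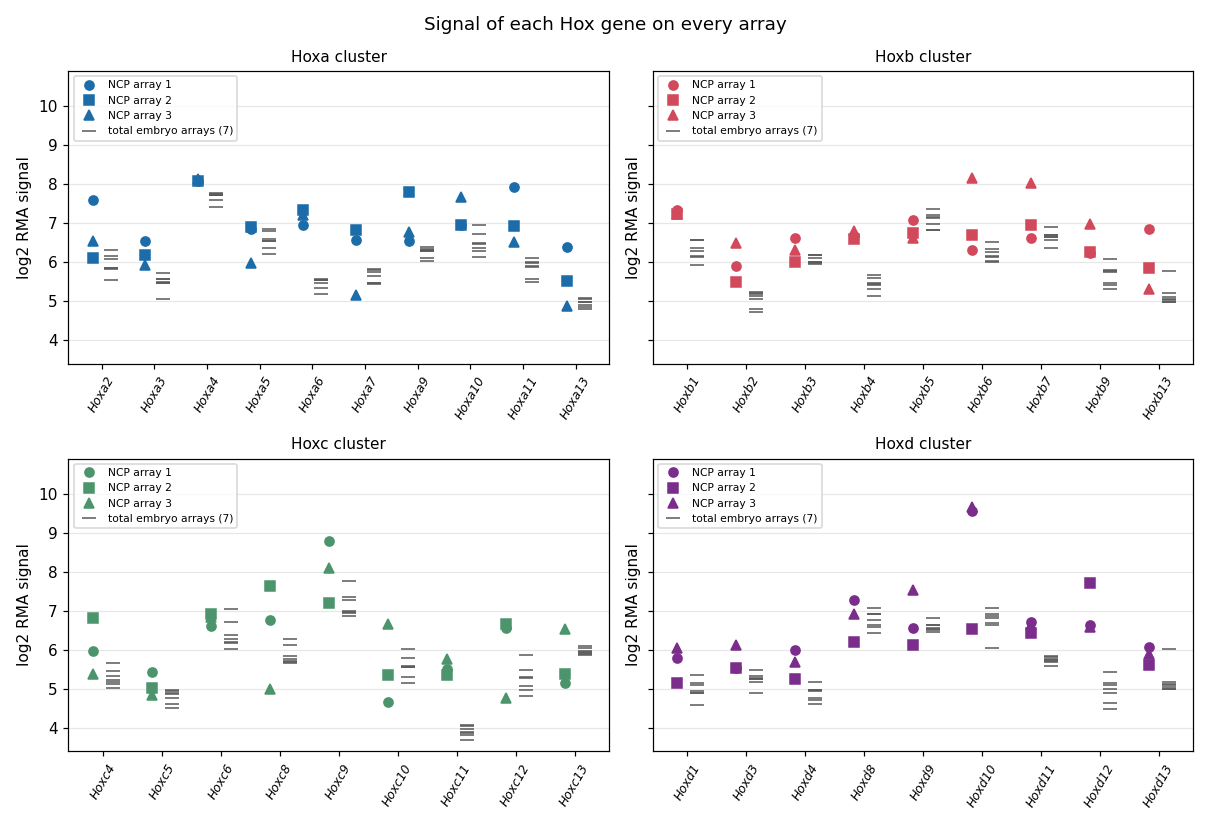
Log2 RMA signal of the 37 Hox genes, 1 panel for each cluster with genes in order of paralog number. Coloured symbols are the 3 NCP arrays and grey bars the 7 total embryo arrays. Hoxd12, Hoxa6 and Hoxc11 show NCP arrays clear of the total embryo arrays, and Hoxd10 shows NCP arrays 1 and 3 far above NCP array 2, which lies among the total embryo arrays.

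Leaving out NCP replicate 2, the array with the smallest distance between housekeeping and receptor genes, gave 23 Hox genes higher, beside 39.4% of all probe sets, and none lower, beside 26.3%, with a median of 0.77. With level adjustment as well, 14 were higher, beside 13.7%, and 1 lower, beside 12.3%. With arrays averaged per RNA isolate 5 Hox genes remained higher (Hoxa6, Hoxb1, Hoxb4, Hoxc11 and Hoxd12), beside 20.4% of all probe sets, and none was lower, beside 14.8%. Against the single total embryo array of the NCP title day no Hox gene was called by limma, beside 1.29% of all probe sets called higher and 2.45% called lower, and the median log2 difference there was 0.61. With 1 array in that arm the spread came from the 3 NCP arrays alone, so the lack of calls there says nothing of stability.

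Against genes of similar level the Hox genes lay mostly in the upper part. The median Hox gene stood at percentile 82.0 of its 500 neighbours by log2 difference, 29 of 37 were over percentile 50, 12 (32.4%) were at or over percentile 90, and 3 were at or under percentile 10. The median percentile was 64.6 without NCP replicate 1, with 12 genes still at or over percentile 90. The genes at the top were Hoxd10, Hoxa6, Hoxb1, Hoxa11, Hoxa4, Hoxc9, Hoxd12, Hoxb6, Hoxa10, Hoxa9, Hoxb7 and Hoxb4. Those at the bottom were Hoxc5 at 2.8, Hoxc10 at 8.6 and Hoxc13 at 9.8, all of the Hoxc cluster.

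**Figure D2:**
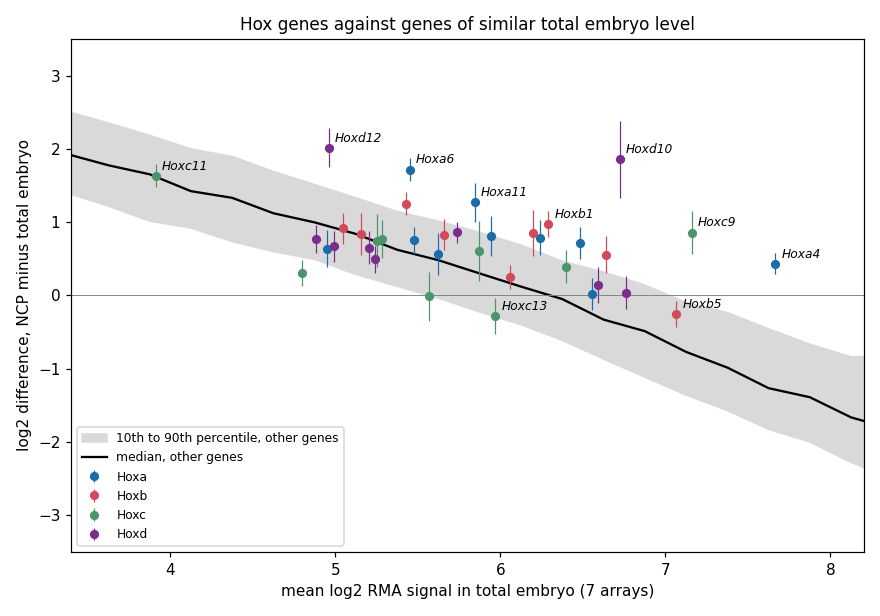
Log2 difference of each Hox gene, NCP minus total embryo, with its standard error from limma, against its mean log2 signal in total embryo. The black line is the median and the grey band the 10th to 90th percentile of other genes, which fall from left to right, and Hoxd10, Hoxc9 and Hoxa4 stand above the band at the bright end while Hoxc11 lies on the line.

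The floor itself lay at a log2 signal of 6.64 to 6.88 on NCP arrays and of 5.31 to 5.49 on total embryo arrays. The share of all genes over it is not given, so the counts of Hox genes over the floor describe no trait particular to them. Of 9 housekeeping genes, 3 were over it on all 3 NCP arrays and 2 on none. The number over the receptor genes' 95th percentile was 13, 12 and 15 on NCP replicates 1, 2 and 3, and 21 to 28 on total embryo arrays. Hoxa4, Hoxa6, Hoxa10, Hoxb1 and Hoxc9 were over the floor on all 3 NCP arrays, 15 Hox genes were over it on none, and 10 of these 15 were among the genes called higher. Hoxc11 is the clearest of those 10. Its log2 signals were 5.51, 5.36 and 5.77 on the NCP arrays and between 3.70 and 4.07, with a median of 3.90, on total embryo arrays. All NCP arrays were above all total embryo arrays, but the gene was over the floor on none of the 10 arrays. Its log2 difference was 1.63 ± 0.16 (SE, adjusted p = 1.83e-06, limma with Benjamini-Hochberg), and 0.02 after level adjustment, at percentile 53.2 of genes of similar level.

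A set of 7 Hox genes was higher in NCPs on the deposited scale, after level adjustment and without each NCP array in turn, namely Hoxa4, Hoxa6, Hoxa11, Hoxb1, Hoxb4, Hoxd11 and Hoxd12, beside 5.52% of all probe sets. Averaging arrays per isolate lost Hoxa4 (adjusted p = 0.27), Hoxa11 (adjusted p = 0.067) and Hoxd11 (adjusted p = 0.0567, limma with Benjamini-Hochberg). When arrays were centred on the receptor genes, Hoxa6 and Hoxd12 had log2 differences of 0.02 and 0.32, and the other 5 were negative. Hoxd12, which takes part in patterning the digits, had log2 signals of 6.64, 7.72 and 6.58 on the NCP arrays, and between 4.49 and 5.43 with a median of 4.99 on total embryo arrays. Every NCP array was above every total embryo array, NCP replicate 2 the highest, and only that array was over the floor. Hoxd12 differed by 2.02 ± 0.27 on the log2 scale (SE, adjusted p = 2.63e-05, limma with Benjamini-Hochberg), and 1.08 after level adjustment (adjusted p = 0.00982). Hoxa6, a gene of the middle of its cluster, had log2 signals of 6.95, 7.34 and 7.22 on the NCP arrays, and between 5.17 and 5.57 with a median of 5.54 on total embryo arrays. The groups did not overlap and the NCP arrays agreed closely, all over the floor. Hoxa6 differed by 1.72 ± 0.16 on the log2 scale (SE, adjusted p = 1.34e-06, limma with Benjamini-Hochberg), and 1.11 after level adjustment (adjusted p = 0.00046), at percentile 99.4 of genes of similar level.

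Hoxa11, which acts in the forearm, kidney and female reproductive tract, had log2 signals of 7.93, 6.91 and 6.51 on the NCP arrays, and between 5.49 and 6.09 with a median of 5.90 on total embryo arrays. Its NCP arrays spread over more than 1 log2 unit yet all stood above the total embryo arrays. Hoxa11 differed by 1.27 ± 0.26 on the log2 scale (SE, adjusted p = 0.000908, limma with Benjamini-Hochberg), and 0.93 after level adjustment (adjusted p = 0.0289). The level-adjusted call was lost without NCP replicate 1, at 0.53 (adjusted p = 0.0878). Hoxd11, its partner in kidney and forearm development, had log2 signals of 6.72, 6.43 and 6.64 on the NCP arrays, and between 5.59 and 5.84 with a median of 5.75 on total embryo arrays. The groups did not overlap, and Hoxd11 was over the floor on all 7 total embryo arrays and on no NCP array. Hoxd11 differed by 0.86 ± 0.14 on the log2 scale (SE, adjusted p = 0.000175, limma with Benjamini-Hochberg), and 0.44 after level adjustment (adjusted p = 0.0482). The level-adjusted call was lost without NCP replicate 1, at 0.39 (adjusted p = 0.0804), and without NCP replicate 3, at 0.42 (adjusted p = 0.0678).

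The set also held genes of low paralog number. Hoxb1, known for setting the identity of the hindbrain segment from which the facial nerve arises, had log2 signals of 7.34, 7.22 and 7.23 on the NCP arrays, and between 5.93 and 6.58 with a median of 6.29 on total embryo arrays. The NCP arrays were nearly equal, over the floor and above every total embryo array. Hoxb1 differed by 0.97 ± 0.17 on the log2 scale (SE, adjusted p = 0.000299, limma with Benjamini-Hochberg), and 0.96 after level adjustment (adjusted p = 0.00209). Hoxb4, which patterns the neck vertebrae, had log2 signals of 6.66, 6.58 and 6.80 on the NCP arrays, and between 5.13 and 5.67 with a median of 5.43 on total embryo arrays. The groups did not overlap, with only NCP replicate 3 over the floor. Hoxb4 differed by 1.25 ± 0.16 on the log2 scale (SE, adjusted p = 1.93e-05, limma with Benjamini-Hochberg), and 0.62 after level adjustment (adjusted p = 0.0133). Hoxa4, its paralog in the Hoxa cluster, had log2 signals of 8.09, 8.07 and 8.14 on the NCP arrays, and between 7.42 and 7.76 with a median of 7.72 on total embryo arrays. All NCP arrays were above all total embryo arrays and over the floor. Hoxa4 differed by 0.43 ± 0.14 on the log2 scale (SE, adjusted p = 0.0179, limma with Benjamini-Hochberg), whereas genes of similar level had a median of -1.31, and level adjustment gave 1.63 (adjusted p = 3.04e-05).

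The Hoxd10 and Hoxc9 arrays are given because their values stood out once seen. Hoxd10, which shapes lumbar motor neurons, had log2 signals of 9.56, 6.53 and 9.65 on the NCP arrays, and between 6.04 and 7.07 with a median of 6.82 on total embryo arrays. NCP replicates 1 and 3 were far above every total embryo array and NCP replicate 2 was among them. Hoxd10 differed by 1.86 ± 0.53 on the log2 scale (SE, adjusted p = 0.00751, limma with Benjamini-Hochberg) and 2.21 after level adjustment, above all 500 genes of similar level, but without NCP replicate 1 or 3 it was 1.37 or 1.32 and missed the threshold (adjusted p = 0.0555 in each case, limma) and without NCP replicate 2 it was 2.88. Hoxc9, which organises thoracic motor neurons, had log2 signals of 8.78, 7.19 and 8.09 on the NCP arrays, and between 6.86 and 7.76 with a median of 6.98 on total embryo arrays. NCP replicate 2 lay within the total embryo range and the other NCP arrays above it. Hoxc9 differed by 0.86 ± 0.30 on the log2 scale (SE, adjusted p = 0.0217, limma with Benjamini-Hochberg) and 1.61 after level adjustment, and on the deposited scale it missed the threshold without NCP replicate 1 (adjusted p = 0.149) and without NCP replicate 3 (adjusted p = 0.0576).

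By cluster, the count called higher on the deposited scale was 8 of 10 in Hoxa, 6 of 9 in Hoxb, 3 of 9 in Hoxc and 7 of 9 in Hoxd, with median log2 differences of 0.73, 0.84, 0.60 and 0.67 that all turned negative with arrays centred on receptor genes. After level adjustment the counts were 4 in Hoxa, 3 in Hoxb, 1 in Hoxc and 3 in Hoxd, beside 10.3% of all probe sets called higher. The median percentile among genes of similar level was 92.6 in Hoxa, 83.6 in Hoxb, 53.2 in Hoxc and 83.2 in Hoxd. All 9 Hoxb genes were over percentile 50. The share called higher among genes of similar level averaged 34.1% for Hoxa, 34.3% for Hoxb, 49.3% for Hoxc and 49.3% for Hoxd. The difference between clusters was not tested. In Hoxc, Hoxc9 was the gene called higher after level adjustment and Hoxc5 the gene called lower, at -0.74 (adjusted p = 0.00908, limma with Benjamini-Hochberg), against a deposited log2 difference of 0.30 that did not pass the test. Hoxc5 was over the floor on none of the 10 arrays.

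The lowest log2 differences in each cluster, with their sign counted, were in genes that did not pass the test. Hoxc13, which acts in hair and nails, had log2 signals of 5.15, 5.38 and 6.54 on the NCP arrays, and between 5.88 and 6.11 with a median of 5.95 on total embryo arrays. NCP replicates 1 and 2 were below every total embryo array and NCP replicate 3 above them, and its log2 difference was -0.28 ± 0.25 (SE, adjusted p = 0.331, limma with Benjamini-Hochberg), a call that became lower without NCP replicate 3 (adjusted p = 0.00133). Hoxb5, which acts in enteric neural crest, had log2 signals of 7.07, 6.75 and 6.60 on the NCP arrays, and between 6.81 and 7.35 with a median of 7.13 on total embryo arrays. NCP replicate 1 overlapped the total embryo arrays and the other NCP arrays were below them. Hoxb5 differed by -0.26 on the log2 scale, with a 95% interval of -0.63 to 0.12 (adjusted p = 0.211, limma with Benjamini-Hochberg).

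Hoxa5, which acts in the lung and neck, had log2 signals of 6.85, 6.90 and 5.97 on the NCP arrays, and between 6.21 and 6.86 with a median of 6.53 on total embryo arrays. NCP replicate 2 lay just above the total embryo range, NCP replicate 1 at its upper end and NCP replicate 3 below it, and the log2 difference was 0.02, with a 95% interval of -0.46 to 0.50 (adjusted p = 0.949, limma with Benjamini-Hochberg). Hoxd8 had log2 signals of 7.29, 6.19 and 6.92 on the NCP arrays, and between 6.44 and 7.06 with a median of 6.77 on total embryo arrays. Its NCP arrays lay above, below and within the total embryo range, with a log2 difference of 0.04 and a 95% interval of -0.46 to 0.53 (adjusted p = 0.89, limma with Benjamini-Hochberg).

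By paralog number, 10 of 11 genes of groups 1 to 4, 2 of 10 of groups 5 to 8 and 12 of 16 of groups 9 to 13 were called higher on the deposited scale, with median log2 differences of 0.76, 0.47 and 0.81 that all turned negative with arrays centred on receptor genes. The groups differ in total embryo level, and among genes of similar level the share called higher averaged 51.0%, 27.6% and 43.8% for the same groups of paralogs. Level adjustment left 3, 2 and 6 genes higher, beside 10.3% of all probe sets. The median percentile among genes of similar level was 58.0 for groups 1 to 4, 83.1 for groups 5 to 8 and 83.4 for groups 9 to 13. The order of the counts on the deposited scale was not the order of the percentiles.

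**Figure D3:**
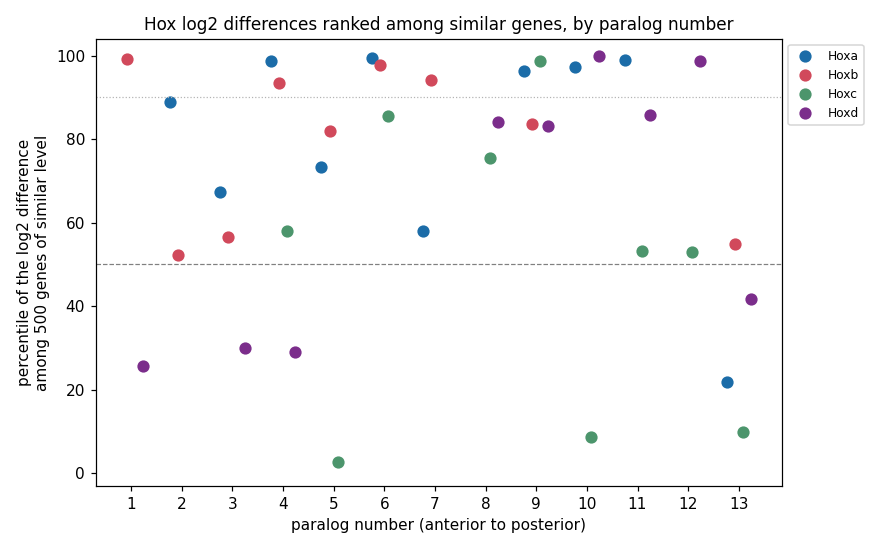
Percentile of each Hox gene's log2 difference, NCP minus total embryo, among the 500 genes nearest in total embryo level, against paralog number, coloured by cluster. Dashed and dotted lines mark percentiles 50 and 90, and all genes of groups 2, 6 to 9, 11 and 12 lie above the dashed line while 3 of 4 genes of group 13 lie below it.

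Percentiles varied within and between the posterior groups, a difference that was not tested. In paralog group 9, the median percentile among genes of similar level was 90 with all 4 genes over 50, and Hoxa9 and Hoxc9 were at 96.4 and 98.8. In group 10, Hoxa10 and Hoxd10, both known from lumbar patterning, were at 97.2 and 100 and their paralog Hoxc10 was at 8.6. The percentile of Hoxc10 was 40.6, 13.4 and 1.0 without NCP replicate 1, 2 and 3. Hoxa10 had a log2 difference of 0.71 on the deposited scale (adjusted p = 0.0113, limma with Benjamini-Hochberg) and 0.86 after level adjustment. Both calls of Hoxa10 were lost without NCP replicate 3, at 0.48 and 0.63 (adjusted p = 0.0644 and 0.0616, limma). Averaging arrays per isolate also lost the deposited call (adjusted p = 0.176, limma). Hoxc10 had one of -0.01, with a 95% interval of -0.74 to 0.72. In group 13, which acts in the hindgut, genital tubercle and limb tips, 3 of 4 genes were called higher on the deposited scale, beside 62.65% of genes of similar level. None was called higher after level adjustment, beside 10.3% of all probe sets, and the median there was -0.21. Hoxa13 had a log2 difference of 0.64 on the deposited scale (adjusted p = 0.0378, limma with Benjamini-Hochberg) and -0.30 after level adjustment, and was over the floor on none of the 10 arrays. The deposited call of Hoxa13 was lost without NCP replicate 1, at 0.24 (adjusted p = 0.256, limma), and without NCP replicate 2, at 0.68 (adjusted p = 0.0584, limma).

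The anterior Hoxd genes also changed their place with level adjustment. Hoxd1, Hoxd3 and Hoxd4 were called higher on the deposited scale, with log2 differences of 0.67, 0.50 and 0.76 (adjusted p = 0.0146, 0.0296 and 0.00314, limma with Benjamini-Hochberg), but stood at percentiles 25.8, 30.0 and 29.0 among genes of similar level and at -0.25, -0.26 and -0.22 after level adjustment. Hoxb6 and Hoxb7, neighbours in the trunk part of Hoxb, stood at percentiles 97.8 and 94.2. Hoxb6 had a log2 difference of 0.85 (adjusted p = 0.0284, limma with Benjamini-Hochberg) on the deposited scale and 0.76 after level adjustment, which did not pass the test, and Hoxb7 had 0.55, which did not pass (adjusted p = 0.0691), and 0.84 after level adjustment (adjusted p = 0.0371). Without NCP replicate 3 the deposited log2 difference of Hoxb6 was 0.29 (adjusted p = 0.176, limma with Benjamini-Hochberg) at percentile 72.0, and that of Hoxb7 was 0.14 (adjusted p = 0.495) at percentile 82.6. The probe set shared by Hoxb7 and Hoxb8 had log2 signals of 5.71, 4.72 and 8.98 on the NCP arrays, and between 5.76 and 6.47 on total embryo arrays. NCP replicate 3 was far above and the other NCP arrays were below all total embryo arrays. There are 6 pairs of Hox genes, among 10 genes, with overlapping gene bodies in RefSeq, Hoxd11 with Hoxd10 and Hoxb3 with Hoxb4 among them, and whether their probe sets read each other's transcripts was not tested.

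Genes in and beside the clusters were measured for 20 of 26 listed. Of these, 12 were higher and 3 lower on the deposited scale by limma, with a median log2 difference of 0.87, and 2 were higher and 1 lower after level adjustment, beside 39.6% and 27.5% of all probe sets on the deposited scale and 10.3% and 8.29% after level adjustment. Of the 6 microRNA genes, Mir196a-1 and Mir615 were over the floor on every NCP array, and Mir10a, Mir10b, Mir196a-2 and Mir196b on none. Mir196a-1, which lies between Hoxb13 and Hoxb9, had log2 signals of 6.84, 9.01 and 8.37 on the NCP arrays, and between 4.56 and 5.38 with a median of 4.90 on total embryo arrays. Every NCP array was above every total embryo array, NCP replicate 2 the highest. Mir196a-1 differed by 3.16 ± 0.35 on the log2 scale (SE, adjusted p = 6.42e-06, limma with Benjamini-Hochberg), 2.19 after level adjustment (adjusted p = 0.00105) and 1.47 once arrays were centred on receptor genes. Mir10a, between Hoxb5 and Hoxb4, had log2 signals of 5.03, 6.17 and 5.22 on the NCP arrays, and between 2.06 and 2.71 with a median of 2.50 on total embryo arrays. The groups lay far apart, with a log2 difference of 3.03 (adjusted p = 3.91e-07, limma with Benjamini-Hochberg), and level adjustment left 0.39 (adjusted p = 0.172), but no NCP array was over the floor.

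Mir10b, which shares the seed of Mir10a, had a log2 difference of 2.26 on the deposited scale (adjusted p = 3.73e-05, limma with Benjamini-Hochberg) and 0.07 after level adjustment. Mir196a-2 and Mir196b, whose mature forms share the seed of Mir196a-1, had deposited log2 differences of 1.78 and 1.14 and level-adjusted ones of 0.10 and 0.09, against 2.19 for Mir196a-1. With arrays centred on receptor genes, Mir196b and Mir615 turned to -0.55 and -0.65. Mir615, inside Hoxc5, had log2 signals of 7.59, 8.10 and 7.57 on the NCP arrays, and between 6.29 and 6.85 on total embryo arrays. Its groups did not overlap, with a log2 difference of 1.04 (adjusted p = 0.000237, limma with Benjamini-Hochberg) and 1.39 after level adjustment (adjusted p = 0.000431). A probe set over a microRNA gene does not separate the mature form from longer transcripts. The neighbours Hibadh, Mtx2 and Skap2 were lower on the deposited scale, with log2 differences of -1.19, -1.16 and -1.05 (limma with Benjamini-Hochberg, adjusted p = 0.000134, 0.00347 and 0.000214), and level adjustment left -0.20, 0.25 and -0.11.

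**Figure D4:**
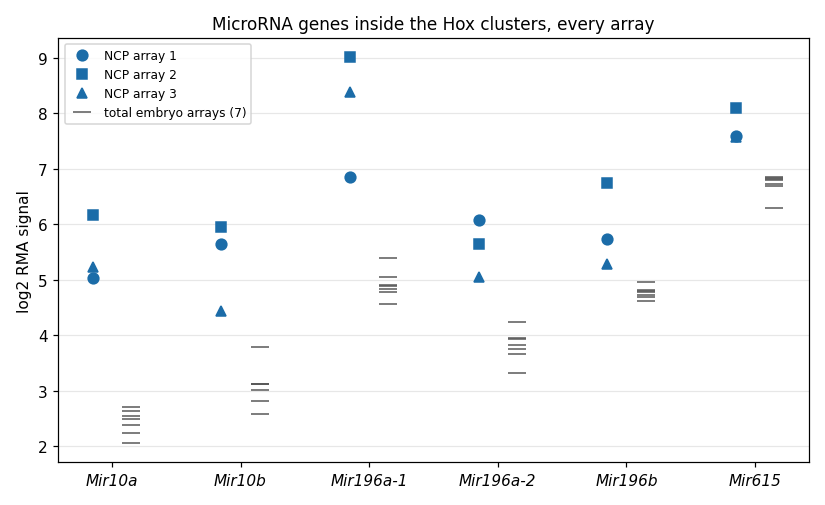
Log2 RMA signal of the microRNA genes inside the Hox clusters. Blue symbols are the 3 NCP arrays and grey bars the 7 total embryo arrays. For all 6 genes every NCP array lies above every total embryo array, beside 31.8% of all probe sets. Mir10a, Mir10b, Mir196a-2 and Mir196b are over the floor on no NCP array.

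Genes of proteins that bind DNA with Hox factors were called in both directions. Of 8 measured Pbx, Meis and Pknox genes, 2 were higher and 3 lower on the deposited scale by limma, beside 39.6% and 27.5% of all probe sets. None was called after level adjustment, beside 10.3% of all probe sets called higher and 8.29% called lower. Meis1 and Meis2 had log2 differences of -1.32 and -1.18 (adjusted p = 6.22e-05 and 0.000909, limma with Benjamini-Hochberg), and -0.01 and 0.13 after level adjustment. Among Cdx, ParaHox and caudal axis factors, 5 of 9 measured were higher and none lower on the deposited scale by limma, and 1 was higher after level adjustment, beside 39.6% higher and 27.5% lower of all probe sets on the deposited scale and 10.3% higher after level adjustment. That gene was Cdx1, which activates Hox genes in the posterior embryo, with log2 signals of 7.20, 7.55 and 6.94 on the NCP arrays, and between 5.58 and 6.24 with a median of 5.88 on total embryo arrays. Its groups did not overlap, and its log2 difference was 1.31 ± 0.19 (SE, adjusted p = 6e-05, limma with Benjamini-Hochberg) and 1.02 after level adjustment (adjusted p = 0.00338), but -0.38 under centring on receptor genes.

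Among retinoic acid genes, whose signal sets anterior Hox expression, 4 of 15 measured were higher and 6 lower on the deposited scale by limma, and none was higher and 4 lower after level adjustment, beside the same 39.6% and 27.5% of all probe sets and 10.3% and 8.29% after level adjustment. Aldh1a1 and Aldh1a2, which make retinoic acid, had log2 differences of -2.39 and -1.14 (adjusted p = 1.08e-06 and 0.000475, limma with Benjamini-Hochberg), and -1.80 and -0.73 after level adjustment. Aldh1a3 was at -0.12 and did not pass the test (adjusted p = 0.605, limma with Benjamini-Hochberg). The largest increases of the list were Rxrg and Cyp26b1, at 0.98 and 0.95 on the deposited scale, and 0.34 and 0.54 after level adjustment. Among Polycomb and trithorax genes, whose products hold Hox genes silent or active, 2 of 16 measured were higher and 8 lower on the deposited scale by limma, beside 39.6% and 27.5% of all probe sets, and 1 was higher after level adjustment, beside 10.3%. That gene was Cbx2, a Polycomb subunit, with a log2 difference of 1.23 (adjusted p = 7.39e-05, limma with Benjamini-Hochberg), 1.46 after level adjustment and -0.47 under centring on receptor genes. Ezh2, the Polycomb enzyme that methylates histone H3, had a log2 difference of -2.08 (adjusted p = 1.71e-06, limma with Benjamini-Hochberg) and 0.09 after level adjustment.

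Markers of other cell types, of liver as an organ outside the tract and of housekeeping were counted in the same way. The shares of all probe sets called higher and lower were 39.6% and 27.5% on the deposited scale, and 10.3% and 8.29% after level adjustment. The counts higher and lower by limma were 6 and 4 of 11 for neurons, 1 and 8 of 11 for mesenchyme and smooth muscle, 0 and 6 of 10 for epithelium, 0 and 5 of 7 for endothelium, 1 and 5 of 6 for erythroid and immune cells, 0 and 6 of 6 for liver and 0 and 9 of 9 for housekeeping genes. After level adjustment they were 3 and 0 for neurons, 1 and 4 for mesenchyme and smooth muscle, 0 and 5 for epithelium, 0 and 0 for endothelium and for erythroid and immune cells, 0 and 6 for liver and 2 and 3 for housekeeping genes. Mesenchyme, which expresses posterior Hox genes in the lower tract, had mean marker levels of 6.23 to 6.63 on NCP arrays and 8.24 to 8.69 on total embryo arrays, and Twist1 was the one marker of that list called higher after level adjustment, at 1.05 (adjusted p = 0.00595, limma with Benjamini-Hochberg). The part of other cells in the Hox signal was not tested.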

How the data were processed

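The authors made the deposited log2 values by robust Multi-Array Average (RMA), per the labels in Affymetrix Expression Console 1.1. Which arrays were normalized together is not given in the sources used here. The labels name the dissected lower urogenital tract and a one-cycle labelling kit, and the study's methods name pelvic ganglia and an amplification of small RNA amounts.

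Values were used as deposited. Of 34760 probe sets, 6568 controls were left out and 28192 tested with limma 3.58.1 in R 4.3.3, by a linear model with moderated variances (prior degrees of freedom 4.65, prior SD 0.315). P-values were adjusted by Benjamini-Hochberg across the tested probe sets, with 0.05 as the limit. Means and intervals are over 3 NCP and 7 total embryo arrays. The total embryo arrays repeat 2 RNA isolates, so the number of isolates as well as of arrays limits the precision. Symbols came from the platform annotation (21640 probe sets with 1 symbol, 1321 with several, 5231 with none) and names and sequences from RefSeq (GRCm38.p6). The fit was tested on simulated data. For level adjustment, a lowess curve (span 0.3) of difference against level was fitted per array and taken off. The receptor set held 1204 probe sets. Figures were drawn with matplotlib 3.10.9 in Python 3.11.15.

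Signals per array are given for the Hox genes with the highest and lowest signed log2 difference in each cluster and for those called in every one of 5 fits, and differences also for up to 10 at either end of the similar-level percentiles and for up to 2 members at either end of each list. Other genes named with values were chosen after their values were seen. Members and lists were chosen with earlier results of these data known. Alternatives changed the scaling, the total embryo arrays, the block, the prior, the filter on dim probe sets and the neighbour number, and left out each array in turn.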

Additional observations from a re-analysis of the deposited data

Results flagged for a closer look

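In 4 of the 37 Hox genes, 1 of the 7 total embryo arrays lay apart from the others by Dixon's test, which chance does in about 1 in 20 groups. Hoxa3 had a log2 signal of 5.06 on total embryo replicate 6, against 5.46 to 5.72 on the others. Hoxb13, which acts in the tail and prostate, had 5.77 on total embryo replicate 3, against 4.97 to 5.21 on the others. Hoxd10 had 6.04 on total embryo replicate 3, against 6.65 to 7.07 on the others. Hoxd13 had 6.02 on total embryo replicate 1, the array that shares the NCP title day, against 4.99 to 5.17 on the others. Without the array concerned the log2 differences of Hoxa3, Hoxb13, Hoxd10 and Hoxd13 were 0.68, 0.95, 1.74 and 0.79, and each stayed past the threshold (adjusted p = 0.00545, 0.0099, 0.0146 and 0.00114, limma with Benjamini-Hochberg). Without NCP replicate 1, Hoxb13 and Hoxd13 were at 0.42 and 0.54 and missed the threshold (adjusted p = 0.133 and 0.0812, limma with Benjamini-Hochberg). Level adjustment gave Hoxa3, Hoxb13, Hoxd10 and Hoxd13 differences of 0.16, 0.04, 2.21 and -0.13. Against total embryo replicate 1 alone, Hoxd13 differed by -0.16.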

How the results depend on the processing

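On the deposited scale 24 Hox genes were higher and 0 lower by limma. For 22 Hox genes picked by the rule for naming genes, 394 of 528 values over 24 alternative settings kept their direction and side of the threshold, while 77 fell short of it, 4 passed it and 53 changed sign. Of the 22 genes, 7 met that rule by staying called in 5 fits. Some of those fits are among the settings, so part of the count that kept was fixed by the choice. With arrays centred on receptor genes 0 were higher and 32 lower, and the median log2 difference was -0.95 over all Hox genes, -0.96 in Hoxa, -0.85 in Hoxb, -1.09 in Hoxc, -1.03 in Hoxd, -0.93 in paralogs 1 to 4, -1.22 in 5 to 8 and -0.88 in 9 to 13. Single genes in the rest of this paragraph are from the same 22, and other Hox genes also changed sign. Among the 22, the log2 differences that turned negative with arrays centred on receptor genes were Hoxa4 -1.26, Hoxa5 -1.68, Hoxa9 -0.91, Hoxa10 -0.98, Hoxa11 -0.42, Hoxa13 -1.06, Hoxb1 -0.72, Hoxb4 -0.44, Hoxb6 -0.85, Hoxc5 -1.39, Hoxc9 -0.84, Hoxc11 -0.061, Hoxd1 -1.03, Hoxd4 -0.93, Hoxd8 -1.65 and Hoxd11 -0.83. Level adjustment gave 11 higher and 1 lower with medians of 0.36 over all Hox genes, 0.021 in Hoxc, 0.056 in paralogs 1 to 4 and 0.37 in 9 to 13, and log2 differences of Hoxa13 -0.30, Hoxb5 0.41, Hoxc5 -0.74, Hoxd1 -0.25 and Hoxd4 -0.22. Alternatives chosen after seeing the data left out 1 NCP array as well. Level adjustment without NCP replicate 1 gave 11 higher and 2 lower with medians of 0.13 over all Hox genes, 0.33 in Hoxa, 0.021 in Hoxc, 0.20 in Hoxd, 0.061 in paralogs 1 to 4, 0.25 in 5 to 8 and 0.44 in 9 to 13, and Hoxa13 -0.70, Hoxb5 0.30, Hoxc5 -0.91, Hoxd1 -0.32 and Hoxd4 -0.40. Level adjustment without NCP replicate 3 gave 12 higher and 3 lower with medians of 0.42 over all Hox genes, 0.36 in Hoxb, 0.36 in Hoxc, -0.0019 in Hoxd, 0.29 in paralogs 1 to 4 and 0.39 in 9 to 13, and Hoxb5 0.54, Hoxc5 -0.64, Hoxc11 -0.14, Hoxd1 -0.46 and Hoxd4 -0.27. Level adjustment without NCP replicate 2 gave 14 higher and 1 lower with medians of 0.34 over all Hox genes, -0.31 in Hoxc, 0.20 in paralogs 1 to 4 and 0.41 in 9 to 13, and Hoxa13 -0.23, Hoxb5 0.40 and Hoxc5 -0.65. Cyclic loess gave 15 higher and 1 lower with medians of 0.47 over all Hox genes, 0.076 in Hoxc, 0.090 in paralogs 1 to 4 and 0.49 in 9 to 13, and Hoxa13 -0.34, Hoxb5 0.52, Hoxc5 -0.87, Hoxd1 -0.27 and Hoxd4 -0.24. Quantile normalization again gave 17 higher and 1 lower with medians of 1.23 in Hoxa and 0.51 in paralogs 1 to 4, and Hoxa13 -0.090, Hoxb5 0.30, Hoxc5 -0.84 and Hoxd1 -0.020. Centring on array medians gave Hoxa5 -0.10 and Hoxd8 -0.083. Arrays averaged per isolate gave 5 higher (Hoxa5 -0.0062), the isolate as a random block 10 (Hoxa5 -0.0033), the title series as a block 15 and the arrays of the shared title series 9 (in both Hoxa5 -0.17, Hoxc10 0.058 and Hoxd8 -0.070). The array of the same title day gave Hoxa5 -0.22 and Hoxd8 -0.26. For the random block, both title series settings and level adjustment without NCP replicate 1 or 3, the share of all probe sets called is not given. Those Hox counts thus cannot be read against the whole array. The causes were not tested.

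Leaving out 1 array at a time gave 19 to 24 higher and 0 to 1 lower, and medians of 0.59 to 0.79 over all Hox genes, 0.51 to 0.92 in Hoxa, 0.59 to 0.94 in Hoxb, 0.35 to 0.82 in Hoxc, 0.59 to 0.92 in Hoxd, 0.59 to 0.92 in paralogs 1 to 4, 0.34 to 0.52 in 5 to 8 and 0.67 to 0.88 in 9 to 13, and the median percentile among genes of similar level, for which only the NCP arrays were left out, ran from 64.6 to 81.6. Over the same omissions Hoxa5 ran from -0.15 to 0.32, Hoxc10 from -0.57 to 0.43 and Hoxd8 from -0.21 to 0.34. The share of all probe sets called higher is given only for leaving out NCP replicate 2 (39.4%), so the range of counts has no such comparison. No paired analysis was possible because the labels give the groups no shared replicate numbers. The small distance of most NCP signals from the receptor genes limits what can be read for dim Hox genes.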
